A study of Mus musculus with 4 samples.

Results

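The 10 genes described here encode the enzymes that make serine and pass its carbon on (Phgdh, Psat1, Psph, Shmt2 and Mthfd2) and members of the integrated stress response (Asns, Chac1, Trib3, Atf4 and Ddit3). They were chosen by name from 32287 gene features, in which they take 11 rows because Ddit3 is listed under 2 identifiers. Over all cells before filtering the second Ddit3 row held 0 UMIs, so all 599 Ddit3 UMIs came from ENSMUSG00000025408. The genes were followed across marker-named cell classes of the mouse spinal cord, with and without injury.

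Cells were sorted for tdTomato from Cx30-tdTomato mice, which carried a Cx30-driven inducible Cre and the R26R-tdTomato reporter and received tamoxifen. Animals of both sexes entered the study at 8 to 12 weeks of age, and both conditions received an enhancer AAV library intravenously, 14 days before surgery in the injured mice. The injured condition had a contusion at level T9 and was sampled 3 days later, and the uninjured condition had no injury. Segments of 5 mm were taken, and the 1 to 2 animals of each sex in a condition were pooled into 1 gene expression library. Cx30 is a gap junction gene of astrocytes, but the sorted cells also held other classes, so the values are given by class.

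Serine is built from a glycolytic intermediate in 3 steps. PHGDH oxidises 3-phosphoglycerate, PSAT1 adds the amino group and PSPH removes the phosphate. SHMT2 splits serine to glycine in mitochondria and hands a carbon to folate, and MTHFD2 carries that folate carbon onward. In the brain and spinal cord, serine synthesis is known as a property of astrocytes, which supply serine to neurons. In the integrated stress response, kinases phosphorylate the translation factor eIF2, general translation slows, and the transcription factor ATF4 is translated more. ATF4 acts on genes of amino acid supply, among them Phgdh, Psat1, Shmt2, Mthfd2 and Asns, and on Ddit3, Trib3 and Chac1. Since ATF4 is controlled in large part at translation, its mRNA level is not a measure of its activity.

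ATF4 binds DNA together with C/EBP proteins at sites of the form TGATGNAA, and the looser form TGANGNAA was searched beside it. Sequences of the 250 bases before each RefSeq gene start (GRCm38.p6) were searched on both strands. All 10 genes had a window, and Psat1 had 2. The strict form was found in 2 of the 10 genes, Asns and Chac1, and in 3.45% of 32851 promoter windows. The loose form, which contains the strict one, was found in the same 2 genes and in 14.1% of windows. The 2 stretches that hold matches are printed with the matches in capitals, beside the stretch of Phgdh, the gene with the most UMIs of the set, which holds none. Those of Chac1 (chr2:119350992-119351228, plus strand) and Phgdh (chr3:98339991-98340219, minus strand) end where the annotated gene begins. That of Asns is 30 bases on the minus strand (chr6:7693214-7693243) and lies inside the annotated gene.
Chac1: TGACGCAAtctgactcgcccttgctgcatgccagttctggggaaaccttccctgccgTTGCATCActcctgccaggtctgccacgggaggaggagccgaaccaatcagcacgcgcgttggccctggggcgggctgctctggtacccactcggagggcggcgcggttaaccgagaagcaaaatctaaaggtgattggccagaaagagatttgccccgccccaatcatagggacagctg
Asns: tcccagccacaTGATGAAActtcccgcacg
Phgdh: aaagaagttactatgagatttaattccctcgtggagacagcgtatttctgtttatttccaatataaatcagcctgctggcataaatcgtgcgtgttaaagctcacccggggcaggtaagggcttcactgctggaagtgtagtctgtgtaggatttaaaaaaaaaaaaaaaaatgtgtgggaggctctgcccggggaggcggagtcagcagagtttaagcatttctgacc
A match describes these letters only, and a window without one says nothing of ATF4 at other positions of the gene.

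After filtering, the injured library held 879 cells with a median of 6816 gene UMIs (unique molecular identifiers, one per captured transcript) and the uninjured library 4159 cells with a median of 3343. Clustering gave 12 clusters, of which 11 could be named by fixed markers, in 7 classes. Astrocyte-like cells numbered 421 injured and 3643 uninjured, at similar median depth (3639 and 3397 gene UMIs). All 10 astrocyte markers were present in both, with summed levels of 14331 and 18501 UMIs per 1000000 gene UMIs (CPM). Microglia-like cells numbered 128 and 31, ependymal-like 144 and 31, endothelial-like 70 and 26, oligodendrocyte precursor (OPC)-like 41 and 14, and fibroblast-like 43 and 95, injured first. The microglia-like cells also carried monocyte and macrophage markers, at 10083 CPM in the injured library beside 17620 CPM of microglia markers. In the uninjured library these levels were 3635 and 13368 CPM. The make-up of this class may thus differ between conditions, and its part in comparisons within the class was not tested. One cluster of 19 injured and 316 uninjured cells had astrocyte markers but neuronal genes (Nefl, Snap25 and Nefm) in the lead and stayed unnamed. The libraries shared 7 cell barcodes. Sex markers went against the description of the uninjured library, in which 2770 cells scored male and 2 female. In the injured library the numbers were 315 and 250, so the main comparisons of conditions are also given for male cells alone. These are not matched in depth. The 129 injured astrocyte-like cells scored male had a median of 6843 gene UMIs, and the 2499 uninjured ones 3890. With 1 library per condition there is no replicate check and no test between conditions, and all intervals (95%) cover counting error only.

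Of the 9 genes with at least 10 UMIs in astrocyte-like cells, 8 had a log2 ratio above 0, beside 7369 of all 15041 genes. The counting interval of the ratio lay above 1 for these 8. That rule was not counted over all genes, so this number is not read as a result about the set. Taking a log2 ratio of at least 1 (with 1 CPM added to both sides) among genes with at least 10 UMIs over both conditions, 5 of these 9 genes were called higher, namely Phgdh, Mthfd2, Asns, Atf4 and Ddit3, and 0 were called lower. Over all 15041 genes read the same way, 12.5% were called higher and 8.32% lower. The median log2 ratio was 1.04 over the 9 genes and -0.02 over all genes. The remaining gene, Trib3, had 2 UMIs. In male cells alone Chac1, with 0 injured and 9 uninjured UMIs, also fell under 10 UMIs. Among the genes left, 2 were called higher (Phgdh and Mthfd2) with a median of 0.81, beside 11.9% of all genes. In cells of any class with an Aldh1l1 UMI 1 gene was called, beside 16.3% of all genes. With 10 CPM added 1 gene was called in astrocyte-like cells, beside 5.21%. Most injured cells of the class came from cluster 1, led by Gfap, Lcn2 and Timp1 (335 injured and 15 uninjured cells), and most uninjured cells from clusters 4, 5, 6 and 10 (734, 1241, 816 and 837 cells), so the comparison of conditions is largely one between these clusters.

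**Figure D1:**
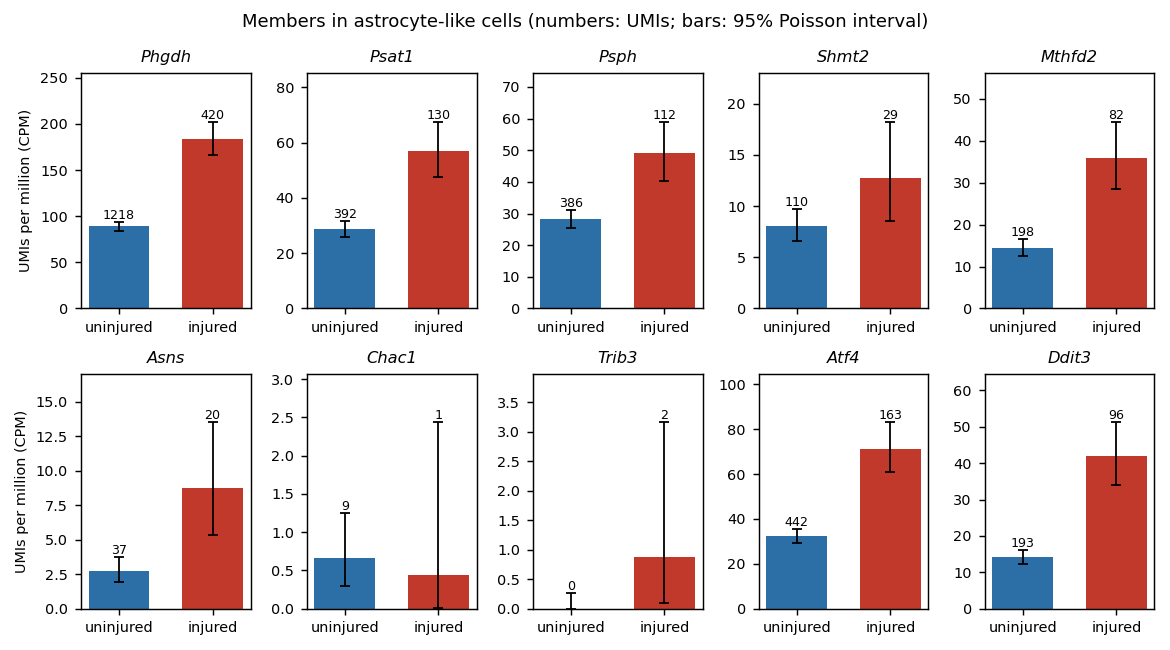
Level of each gene (CPM, bars from 0, a separate axis per gene) in uninjured (blue) and injured (red) astrocyte-like cells, with 95% Poisson intervals and the number of UMIs above each bar. Bars of the injured library are higher for all genes but Chac1, which had 9 and 1 UMIs, and Trib3 had 0 and 2.

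All 3 enzymes of serine synthesis were higher in the injured library. Phgdh, which opens the pathway and lies on chromosome 3 (98313170 to 98339990, minus strand, GRCm38), had 1218 UMIs in uninjured and 420 in injured astrocyte-like cells. Its level was 88.9 CPM (84.0 to 94.1) and 184 CPM (167 to 202), and the ratio was 2.07 (1.85 to 2.31). Psat1, the second enzyme, had 28.6 CPM uninjured and 56.9 CPM injured, with a ratio of 1.99 (1.62 to 2.43). Its log2 ratio of 0.97 fell just short of the line. Psph, which makes the final product, had 28.2 and 49.0 CPM and a ratio of 1.74 (1.40 to 2.15). Summed over the 3 enzymes, the level was 146 CPM in uninjured and 290 CPM in injured astrocyte-like cells. In male cells alone the ratios were 2.07 (1.75 to 2.44) for Phgdh, 1.83 (1.33 to 2.46) for Psat1 and 1.75 (1.27 to 2.36) for Psph, so the interval stayed above 1 for each.

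More cells also carried a Phgdh UMI in the injured library at equal depth. With each cell thinned to 1000 gene UMIs, the share was 16.0% (12.5 to 20.0%) of 388 injured and 8.45% (7.55 to 9.40%) of 3576 uninjured astrocyte-like cells, with 33 and 67 shallower cells left out. Without thinning the shares were 37.5% and 23.8%. Endothelial-like cells, at a median of 7972 gene UMIs, gave 1.49% in the injured library after thinning. For Psat1 the thinned shares were 4.64% (2.77 to 7.23%) and 3.24% (2.69 to 3.88%), and for Psph 4.12% (2.38 to 6.61%) and 2.74% (2.23 to 3.33%), intervals that overlap between conditions for both genes.

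Of the mitochondrial folate enzymes, Mthfd2 passed the line and Shmt2 did not. Mthfd2 had 14.5 CPM (12.5 to 16.6) in uninjured and 35.9 CPM (28.5 to 44.6) in injured astrocyte-like cells, a ratio of 2.48 (1.90 to 3.23). It was found in 1.40% (1.04 to 1.84%) of uninjured and 4.90% (2.97 to 7.54%) of injured cells at equal depth. In male cells the Mthfd2 ratio was 2.11 (1.38 to 3.12). Shmt2 had 8.03 and 12.7 CPM from 110 and 29 UMIs, a ratio of 1.58 (1.01 to 2.40), and in male cells 1.34 (0.645 to 2.52), an interval that includes 1.

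Atf4 and Ddit3 were both called higher. Atf4, on chromosome 15 (80255184 to 80257541, plus strand), had 442 UMIs or 32.3 CPM (29.3 to 35.4) in uninjured and 163 UMIs or 71.3 CPM (60.8 to 83.2) in injured astrocyte-like cells, a ratio of 2.21 (1.84 to 2.65). Its thinned share was 2.77% (2.26 to 3.36%) of uninjured and 6.19% (4.003 to 9.06%) of injured cells. In male cells the Atf4 ratio was 2.00 (1.51 to 2.61), with a log2 ratio of 0.98 that fell below the line.

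Ddit3, which encodes CHOP, a transcription factor linked to cell death under lasting stress, had 14.1 CPM (12.2 to 16.2) in uninjured and 42.0 CPM (34.0 to 51.3) in injured cells, a ratio of 2.98 (2.31 to 3.83). One injured cell held 32 of the 96 injured UMIs. That cell had 5215 gene UMIs, 4 UMIs of Asns, 3 of Psph and 3 of Atf4, and 0 of the other 6 genes. Without it the Ddit3 level was 28.1 CPM and the ratio 1.99 (1.48 to 2.66), and the log2 ratio of 0.95 fell below the line. Male cells, among which this cell was not counted, had 13.9 CPM uninjured and 18.7 CPM injured, a ratio of 1.34 (0.787 to 2.18) whose interval includes 1.

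The 3 other genes of the stress response were scarce in astrocyte-like cells. Asns, which makes asparagine, had 37 uninjured UMIs (2.70 CPM) and 20 injured UMIs (8.75 CPM), a ratio of 3.24 (1.78 to 5.73). In male cells its UMIs were 25 and 2, and the ratio turned to 0.838 (0.0962 to 3.36). Chac1, which breaks down glutathione, had 9 and 1 UMIs, a ratio of 0.666 with an interval from 0.0152 to 4.81 that allows either direction. Trib3, a pseudokinase that acts on the same pathway, had 0 UMIs in 3643 uninjured cells, where 3 counts would be 0.219 CPM, and 2 UMIs in 421 injured cells. The counting interval of the Trib3 ratio began at 1.13, and in male cells, with 1 injured and 0 uninjured UMIs, at 0.269. Both conditions were under 3 counts, so no fold is given. A difference in Chac1, one of the 2 genes with a strict match in the printed stretches, was not detectable at this depth.

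Within the injured library, levels were also read in astrocyte-like cells scored by sex. Their separate intervals overlap, which does not show equal levels, and no ratio between the sexes was taken. Phgdh was at 228 CPM (192 to 267) in 74 female and 175 CPM (150 to 202) in 129 male cells, Mthfd2 at 44.6 (29.9 to 64.1) and 30.6 (20.8 to 43.4) CPM, and Atf4 at 75.4 (55.8 to 99.7) and 65.1 (50.3 to 82.8) CPM. Asns had 7 UMIs in the female and 2 in the male cells. The spread between animals of a sex is not covered by these intervals.

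Uninjured astrocyte-like clusters differed among themselves in the serine enzymes. Phgdh was at 30.7 CPM (22.9 to 40.4) in cluster 4, 71.1 (63.7 to 79.0) in cluster 5, 77.3 (68.3 to 87.1) in cluster 6 and 146 (134 to 159) in cluster 10. Phgdh was among the 10 leading genes of cluster 10, so the clustering used it and these levels are a description. Cluster 4 was led by mitochondrial genes and had the lowest median depth, 1864 gene UMIs. Psat1 and Psph followed the same order at their ends, from 15.1 and 14.4 CPM in cluster 4 to 35.6 CPM each in cluster 10.

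Atf4 and Mthfd2 differed less than Phgdh across these clusters. Cluster 10 had 36.1 CPM of Atf4 (30.2 to 42.8) and cluster 6 had 38.9 (32.6 to 46.1). Uninjured cluster 4 had 30.7 CPM (22.9 to 40.4). Cluster 5 had 24.4 CPM (20.2 to 29.2), an interval below those of clusters 6 and 10. Mthfd2 was at 13.2, 13.5, 12.7 and 18.2 CPM in uninjured clusters 4, 5, 6 and 10, with overlapping intervals. The injured cells of cluster 1 had 190 CPM of Phgdh (172 to 210), 61.4 of Psat1 (51.2 to 73.1), 36.6 of Mthfd2 (28.8 to 45.8) and 77.5 of Atf4 (65.9 to 90.6). The 15 uninjured cells of cluster 1 had 220 CPM of Phgdh (133 to 344, 19 UMIs) and 69.5 CPM of Atf4 (25.5 to 151, 6 UMIs), so within this cluster the conditions did not separate in either gene.

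**Figure D2:**
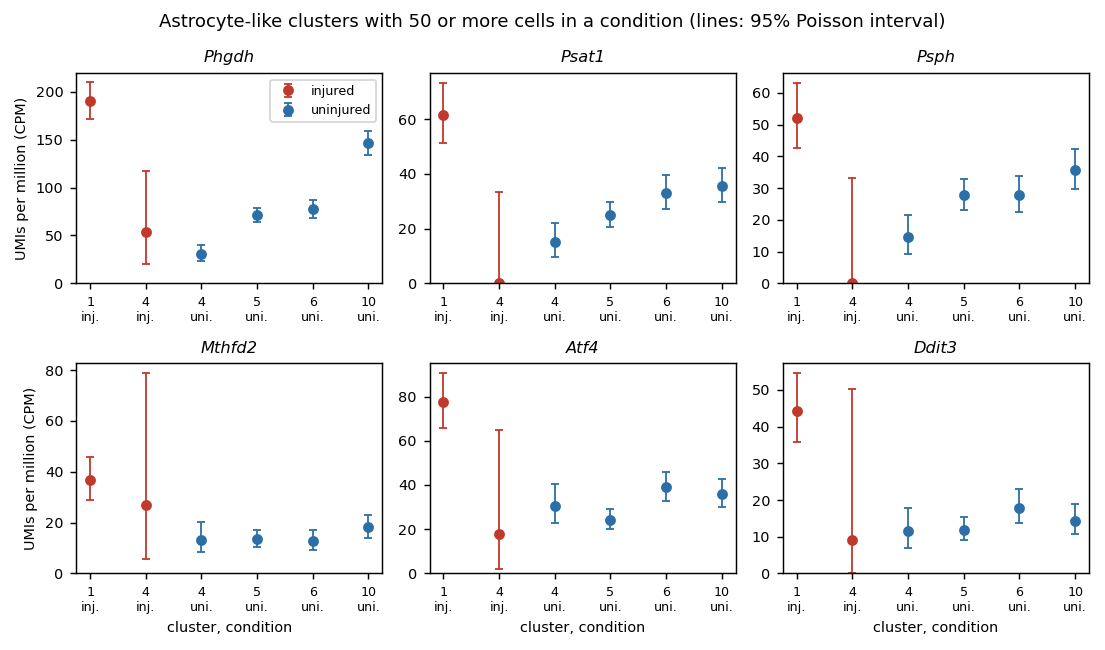
Level (CPM, axes from 0) of 6 genes in the astrocyte-like clusters with at least 50 cells in a condition, injured in red and uninjured in blue, with 95% Poisson intervals. Phgdh climbs from 30.7 CPM in uninjured cluster 4 to 146 CPM in uninjured cluster 10, while Atf4 stays between 24.4 and 38.9 CPM in the 4 uninjured clusters and reaches 77.5 CPM in injured cluster 1.

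Across classes of the injured library, Phgdh was highest in astrocyte-like cells. It was at 184 CPM there, 87.8 CPM (74.9 to 102) in microglia-like, 72.2 CPM (56.3 to 91.2) in OPC-like, 16.6 CPM (8.60 to 29.1) in fibroblast-like, 10.0 CPM (5.84 to 16.1) in ependymal-like and 8.01 CPM (2.94 to 17.4) in endothelial-like cells. The intervals of the 2 classes after astrocyte-like cells overlap, as do those of the last 3. The ratio of astrocyte-like to microglia-like cells was 2.09 (1.75 to 2.52), to ependymal-like cells 18.3 (11.3 to 31.8) and to endothelial-like cells 22.9 (10.5 to 62.9). In the uninjured library Phgdh was 2.25-fold higher in astrocyte-like than in fibroblast-like cells (1.31 to 4.23).

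Psat1 and Psph were spread over more classes than Phgdh. Psat1 was at 68.1 CPM (52.7 to 86.6) in injured OPC-like, 56.9 (47.5 to 67.6) in astrocyte-like and 43.9 (35.0 to 54.4) in microglia-like cells, and neighbours in this order overlap. It then stood at 30.7 CPM in ependymal-like, 11.1 in fibroblast-like and 4.01 in endothelial-like cells. Psph was at 73.2 CPM (57.2 to 92.4) in injured OPC-like cells and 49.0 (40.4 to 59.0) in astrocyte-like cells, and between 14.3 and 20.7 CPM in the other 4 classes. OPC-like cells are few but deep, with a median of 22050 gene UMIs in 41 injured cells. Their 3 enzymes together had 214 CPM (185 to 245) in the injured library, and 105 CPM (50.6 to 194) from 10 UMIs in 14 uninjured cells.

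Injured microglia-like cells carried serine enzyme transcripts, while the 31 uninjured ones gave few UMIs to compare them with. Phgdh had 166 UMIs in 47 of 128 injured cells and 1 UMI in the uninjured cells, a ratio of 10.3 with an interval from 1.82 to 408. In male cells the UMIs were 61 and 1, and the interval (0.901 to 209) included 1. The 10 cells richest in Phgdh held 88 of the 166 UMIs (53.0%), and 1 cell held 19. Psat1 had 83 and 1 UMIs, with an interval of the ratio from 0.896 to 205.

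Astrocyte markers were measured in the same cells, since RNA from other cells can enter a droplet. The 10 astrocyte markers stood in injured microglia-like cells at 0.000773 to 0.0570 of their level in astrocyte-like cells, with a median of 0.00372. The same quotient was 0.477 for Phgdh and 0.771 for Psat1, above the whole range of the markers. In endothelial-like cells the markers had a median of 0.00115 and Phgdh 0.0436, within their range. Psat1 there was at 0.0704, from 3 UMIs, just above the highest marker at 0.0687. In ependymal-like cells the markers ranged from 0.0208 to 0.766, and Phgdh at 0.0546 and Psat1 at 0.539 lay within that range. The part of free RNA in the levels of these classes was not tested. At 1000 gene UMIs per cell, 4.96% (1.84 to 10.5%) of injured microglia-like cells had a Phgdh UMI.

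**Figure D3:**
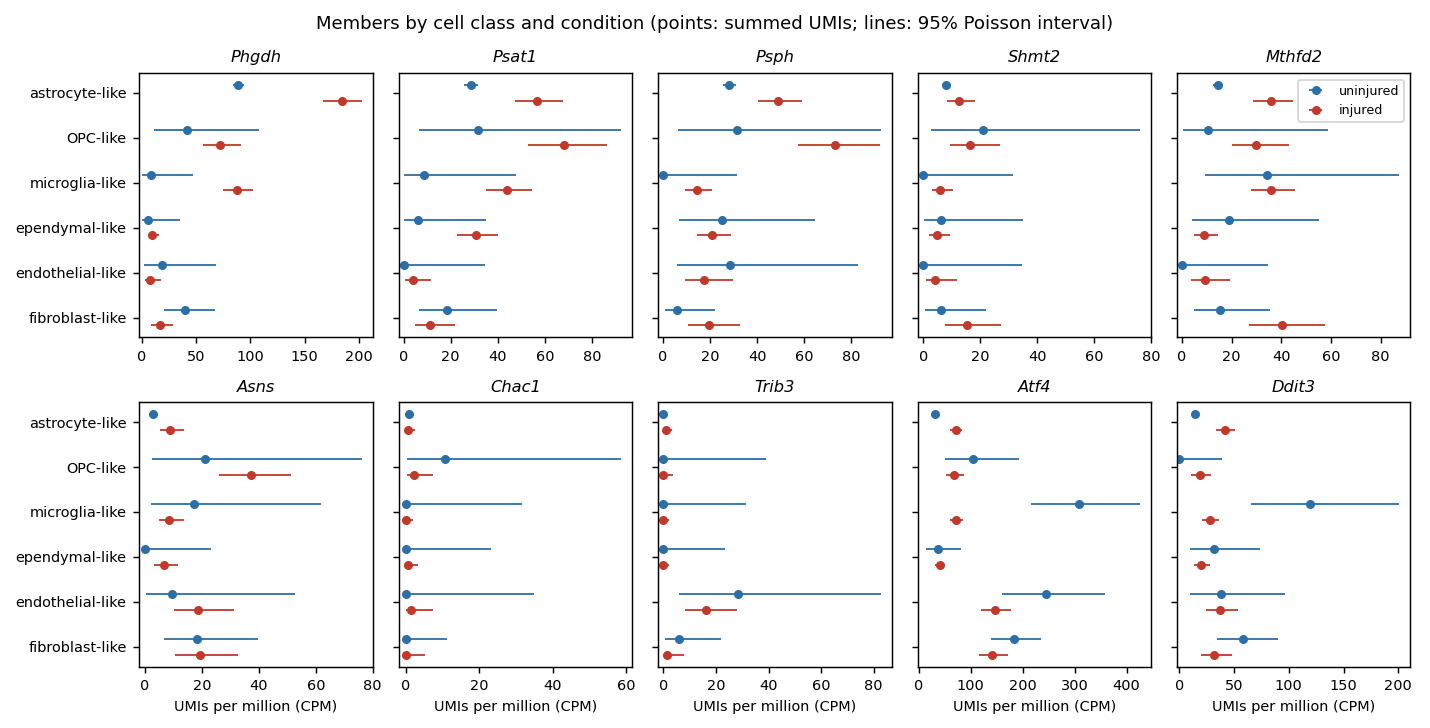
Level (CPM) of each gene in 6 cell classes, injured in red below uninjured in blue, with 95% Poisson intervals of the summed UMIs and a separate axis per gene. Phgdh is highest in injured astrocyte-like cells (184 CPM), Atf4 and Ddit3 in uninjured microglia-like cells (308 and 120 CPM), and Trib3 was found mainly in endothelial-like cells.

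The stress response genes had another order of classes. In the injured library Atf4 was at 147 CPM (121 to 177) in endothelial-like and 141 CPM (115 to 172) in fibroblast-like cells, levels that did not separate. A single fibroblast-like cell held 23 of the 102 Atf4 UMIs of its class. Astrocyte-like (71.3), microglia-like (71.4) and OPC-like cells (68.1) came next and did not separate either, and ependymal-like cells had 40.7 CPM (31.7 to 51.5). The ratio of astrocyte-like to endothelial-like cells was 0.486 (0.379 to 0.624) for Atf4 and 1.12 (0.731 to 1.78) for Ddit3. In the uninjured library astrocyte-like cells had 0.177 (0.135 to 0.235) of the Atf4 level and 0.244 (0.152 to 0.413) of the Ddit3 level of fibroblast-like cells.

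Trib3 was read mainly in endothelial-like cells. It had 12 UMIs in 9 of 70 injured cells, or 16.0 CPM (8.28 to 28.0), and 3 UMIs in 26 uninjured cells, or 28.3 CPM (5.84 to 82.7). Injured astrocyte-like cells had 0.0546 (0.00594 to 0.245) of the injured endothelial-like level. Asns was at 37.1 CPM (26.0 to 51.4) in injured OPC-like cells, 18.7 (10.2 to 31.4) in endothelial-like cells and 19.4 (10.6 to 32.6) in fibroblast-like cells, against 8.75 (5.35 to 13.5) in astrocyte-like cells. In the unnamed uninjured cluster with neuronal genes Asns had 29 UMIs, or 28.0 CPM (18.8 to 40.2), beside 2.70 CPM (1.90 to 3.72) in uninjured astrocyte-like cells. Chac1 never exceeded 2 UMIs in a class other than uninjured astrocyte-like cells. Mural-like cells, 13 injured and 3 uninjured, gave 7 Ddit3 UMIs in the injured library, or 82.5 CPM (33.2 to 170), and at most 2 UMIs of any other gene of the set in either library.

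Atf4 and Ddit3 stood the other way round in microglia-like cells. Atf4 was at 308 CPM (216 to 426, 36 UMIs) in 31 uninjured and 71.4 CPM (59.8 to 84.5, 135 UMIs) in 128 injured cells, a ratio of 0.232 (0.159 to 0.345). Ddit3 was at 120 CPM (65.5 to 201, 14 UMIs) and 28.0 CPM (21.0 to 36.7, 53 UMIs), a ratio of 0.234 (0.128 to 0.457). In male cells alone, 60 injured and 14 uninjured, the Atf4 ratio was 0.246 (0.152 to 0.409) and the Ddit3 ratio 0.417 (0.192 to 1.03), an interval that includes 1. In endothelial-like cells Atf4 had 245 CPM uninjured and 147 CPM injured, a ratio of 0.599 (0.388 to 0.957) that was 0.895 (0.462 to 1.87) in male cells. In fibroblast-like cells the Atf4 ratio was 0.774 (0.557 to 1.08), and 0.517 (0.313 to 0.838) in male cells. Ependymal-like cells had an Atf4 ratio of 1.08 (0.470 to 3.03), and the Ddit3 ratio was 0.991 (0.347 to 3.89) in endothelial-like cells, so neither gene separated the conditions there.

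Genes known to rise when tissue is dissociated also differed between the conditions, in part along with these values. A list of 14 such genes, among them Fos and Junb, summed to 15276 CPM in uninjured and 4050 CPM in injured microglia-like cells, and to 15254 and 12742 CPM in endothelial-like, 7827 and 6017 CPM in fibroblast-like and 10113 and 5400 CPM in ependymal-like cells. In astrocyte-like cells the sum was far lower and ran the other way, from 282 CPM uninjured to 902 CPM injured, and 10 of the 14 genes were called higher and 1 (Dusp1, log2 ratio -1.05) lower. The 4 highest were Ier3 (2.94), Fos (2.48), Junb (2.48) and Hspa1b (2.23). Their part in the Atf4 and Ddit3 values was not tested.

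Other genes of the same pathways were read in astrocyte-like cells from lists chosen by function. Of 18 other targets of ATF4, 16 had enough UMIs, 9 were called higher and 1 lower, with a median log2 ratio of 1.41. Nupr1, a small stress-induced chromatin protein, had 15 uninjured and 299 injured UMIs (log2 ratio 5.98). Atf3 and Cebpb, transcription factors of the same bZIP class as ATF4, were at 3.54 and 3.28, and Eif4ebp1, an inhibitor of translation initiation, at 3.26. Cth, which makes cysteine, was lower at -1.06. Atf3 and Cebpb are also known as genes of inflammation and acute injury. Fgf21 had 0 UMIs in either condition and Pycr1 had 2.

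Enzymes and carriers around serine went in both directions. Of 20 genes of glycine and one-carbon metabolism, 5 were called higher and 0 lower, with a median of 0.28. Aldh1l2, the mitochondrial formyl-folate dehydrogenase, was at 1.86 from 9 injured and 5 uninjured UMIs. Shmt1, the cytosolic counterpart of Shmt2, was at 1.52 and Sfxn3, a mitochondrial serine carrier of the sideroflexin family, at 1.40. Of 11 amino acid carriers, Slc7a1 (log2 ratio 2.51), for cationic amino acids, and Slc38a2 (1.26), for small neutral ones, were called higher. Slc7a10, which exchanges serine, glycine and other small amino acids across the astrocyte membrane, was called lower at -1.75, with 1606 CPM in uninjured and 478 CPM in injured cells. The astrocyte-like cells of the injured library thus had more transcript of the serine-making enzymes and less of this exchanger.

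The upstream and neighbouring arms of the stress response were also read. Of 14 genes for eIF2, its exchange factor, its kinases and their partners, 4 were called higher and 0 lower, with a median of 0.37. Eif2s3x (1.44), Eif2s2 (1.37) and Eif2s1 (1.12) encode the 3 subunits of eIF2, and Eif2b5 (1.07) a subunit of its exchange factor. The uninjured library scored almost wholly male. In male cells alone 1 of these 14 genes was called higher, beside 11.9% of all genes. The 4 kinase genes had log2 ratios of 0.20 (Eif2ak1), -0.53 (Eif2ak2), -0.22 (Eif2ak3) and -0.72 (Eif2ak4). None of the 12 aminoacyl-tRNA synthetases, another group of ATF4 targets, was called. All 12 log2 ratios were above 0, with a median of 0.61, beside 7369 of all 15041 genes above 0. Of 18 genes of the ATF6 and XBP1 arm, which answers unfolded protein in the endoplasmic reticulum, 10 were called higher and 0 lower, with a median of 1.04. The 4 highest were Sdf2l1 (1.79), Pdia4 (1.61), Creld2 (1.52) and Hspa5 (1.44), all of which work in the endoplasmic reticulum. The counts of calls over all astrocyte-like cells stand beside the same 12.5% and 8.32% of all genes, and no set test was run.

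**Figure D4:**
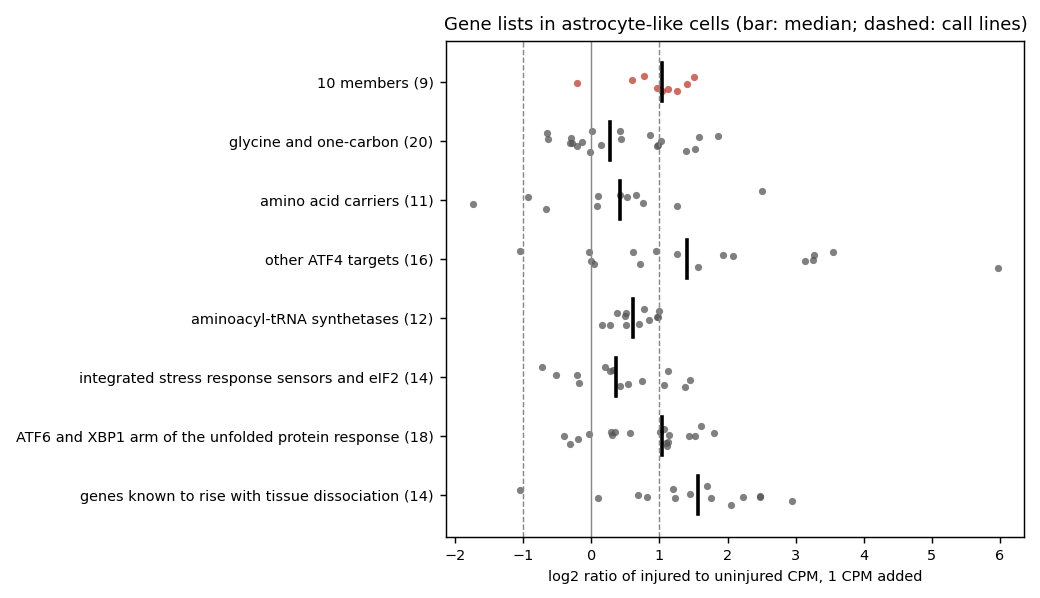
Log2 ratio of injured to uninjured CPM in astrocyte-like cells (1 CPM added), one point per gene with at least 10 UMIs over both conditions, for the 10 genes (top, red) and 7 lists of related genes (grey), with the number of genes read in brackets. Black bars are medians, dashed lines mark ratios of -1 and 1, and the vertical position within a row carries no value. The synthetases lie between the lines, while the other ATF4 targets reach 5.98 (Nupr1).

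The genes whose levels went most like those of Phgdh, Psat1 and Atf4 were read over the 6 class and condition profiles with at least 50 cells, as Pearson's r of log2(CPM + 1) among 7058 genes. The profiles are the injured astrocyte-like, microglia-like, ependymal-like and endothelial-like cells and the uninjured astrocyte-like and fibroblast-like cells. Phgdh was closest to Hpgd (0.986), followed by Cst3, Mpdu1, Specc1 and Fabp5. Psat1 was closest to Bhlhe41 (0.953), followed by Itgav, Rab24, Wdfy2 and Asph. Atf4 was closest to Imp3 (0.995), followed by Cnn2, March5, Mcrip1 and Eva1b. The profiles of a library share animals, sort and sequencing run, so these values are a description, and the 3 lists had no gene in common.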

How the data were processed

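The authors deposited 1 matrix of raw UMI counts per condition (10x 3′ chemistry). Cell Ranger 7.1.0 is named in the file headers and 8.0.1 in the labels. The genome build of this experiment is not given in the sources used here, and 99.6% of gene identifiers matched GENCODE M21 (GRCm38), which gave the positions. The 23 enhancer barcode features, deposited in the same matrices, were not used here. The gene UMIs of a kept cell lay above 500 and below 50000, which removed 40 injured cells. Clusters came from scanpy 1.11.5 (counts scaled to 10000 per cell, 2000 variable genes, 15 components, 15 neighbours, Leiden resolution 0.5). A cluster was named by the highest mean marker score (above 0.2) with at least 3 markers in 10% of its cells and no more markers of another class among its 10 leading genes. Scrublet marked 2 of 5038 cells, a share of 0.0397% at which the caller has not worked, and no doublets were removed. Cells were scored male with a UMI of a Y-linked gene and none of Xist, and female the other way round.

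UMIs were summed per class and condition. Levels have exact Poisson, ratios exact conditional binomial and shares exact Clopper-Pearson 95% intervals. Whether animals or libraries differ by more than this cannot be told, since each condition was 1 pooled library. The ratio and its interval were tested on simulated data with independent Poisson counts. Those counts do not hold the clumping of UMIs in single cells, so the test says nothing of it. The genes, the lists and the marker lists were chosen with earlier results of these data known. Named genes were all 10 members, up to 4 per direction and list past the log2 threshold of 1, and the 5 genes most like Phgdh, Psat1 and Atf4. Values outside this rule (the eIF2 kinases, Fgf21 and Pycr1) were named after they were seen. One gene of the lists that met the rule is not reported here. No paired analysis was possible because there was 1 library per condition.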

Additional observations from a re-analysis of the deposited data

Results flagged for a closer look

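Atf4 and Ddit3 stood out because their difference between conditions ran in opposite directions in 2 cell classes. In microglia-like cells the log2 ratio of injured to uninjured was -2.09 for Atf4 and -2.06 for Ddit3, against 1.12 and 1.51 in astrocyte-like cells. The difference between the classes was not tested, since each condition had 1 library. In male cells alone the microglia-like values were -2.01 for Atf4 and -1.24 for Ddit3, and the astrocyte-like values 0.98 and 0.40. The male Ddit3 ratios were 0.417 (0.192 to 1.03) in microglia-like and 1.34 (0.787 to 2.18) in astrocyte-like cells. Both intervals include 1, so the opposite directions of Ddit3 did not separate there. One injured astrocyte-like cell held 32 of the 96 Ddit3 UMIs, and without it the astrocyte-like value was 0.95. The uninjured microglia-like cells numbered 31, with 36 UMIs of Atf4 and 14 of Ddit3, and their summed dissociation genes were at 15276 CPM against 4050 CPM in the injured ones. Monocyte and macrophage markers were at 3635 CPM in the uninjured and 10083 CPM in the injured microglia-like cells. The part of the dissociation genes and of these markers in the 2 values was not tested.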

How the results depend on the processing

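In 14 alternatives the log2 ratio in astrocyte-like cells ranged from 0.84 to 1.15 for Phgdh, 0.79 to 1.13 for Psat1, 0.60 to 0.89 for Psph, 0.30 to 0.71 for Shmt2, 0.85 to 1.37 for Mthfd2, 0.88 to 1.33 for Atf4 and 0.40 to 1.74 for Ddit3. Of these alternatives, 1 was not limited to astrocyte-like cells and took cells of any class with an Aldh1l1 UMI. That alternative gave the lowest values of Psph, Mthfd2 and Atf4. With male cells alone Asns turned to -0.17, on 2 injured UMIs. The number of genes called higher (5) was 1 with 10 CPM added, 2 in male cells and 1 in cells with an Aldh1l1 UMI, beside 5.21%, 11.9% and 16.3% of all genes, shares that also stand behind the list counts under these settings, and between 4 and 6 in the other alternatives. The median of the genes with enough UMIs was 0.79 with 10 CPM added and 0.81 in male cells, where Chac1 and Trib3 had too few. With 10 CPM added, counts of calls on the lists were 0 higher for one-carbon genes, 1 higher for carriers, 2 higher for sensors and eIF2, 6 higher for the ATF6 and XBP1 arm, 6 higher for dissociation genes and 0 lower for ATF4 targets. One-carbon genes called higher numbered 2 in male cells and 3 in cells with an Aldh1l1 UMI, and sensors and eIF2 genes 1 in male cells. Carriers called lower numbered 2 in cells with an Aldh1l1 UMI and 2 under median of ratios scaling. Dissociation genes called lower numbered 0 with 10 CPM added, in male cells and in cells with an Aldh1l1 UMI. Leaving out the cluster led by mitochondrial genes, an alternative chosen after seeing the data like the omission of the cell richest in Ddit3 and the male cells of classes other than astrocyte-like, brought 2 synthetases past the line. The ratio of astrocyte-like to microglia-like cells was 2.60 for Phgdh in male cells and 2.60 as a mean of single cells, and 2.05 for Psat1 as a mean of single cells. The shares moved with the UMIs asked of a cell. Asking 2 UMIs gave 3.09% and 0.699% for Phgdh, injured first, and 0.258% and 0.140% for Atf4. Without thinning they were 37.5% and 23.8% for Phgdh and 26.4% and 10.8% for Atf4. In male cells 20.5% of injured cells had a Phgdh and 3.15% an Atf4 UMI, and among uninjured cells with an Aldh1l1 UMI 7.51% had a Phgdh UMI. The mean of single cells shifted the median of all genes to -0.14, with 12.8% called higher and 14.1% lower, and median of ratios scaling to -0.11, with 10.6% and 10.5%. Apart from the alternatives that change the cells or the added CPM by their construction, the cause of these shifts was not tested. Depth limits Asns, Chac1 and Trib3 most.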
